A study of Danio rerio with 28 samples.

Results

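The comparison set larvae kept in cadmium (Cd) at 24 ug/L, the highest of 3 cadmium doses, against unexposed controls. Its members were all libraries that the labels give as Cd 24 ug/L or as control: 8 libraries, 4 per group, of the 28 in the series. Both groups were whole zebrafish (Danio rerio) of the wild-type AB strain, kept in E3 embryo medium in petri dishes at 28.5 C. Exposure ran from day 1 to day 5 after fertilization, and polyadenylated RNA was sequenced on day 5. The other 20 libraries are 4 each of Cd 2.4 and 12 ug/L and of PCB126, a dioxin-like polychlorinated biphenyl, at 0.08, 0.4 and 0.8 nM. The labels do not say how many larvae went into a library, nor whether replicates are separate clutches, dishes or pools, so p-values measure the spread between these libraries, which may be technical.

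Cadmium is a toxic metal with no known role in fish physiology. It can enter cells through calcium, zinc and iron transporters, and metallothioneins, small cysteine-rich proteins, bind it. Young fish take up calcium from water through ionocytes of the skin, under hormones that include stanniocalcin, which lowers calcium uptake, and vitamin D, which raises it. Ferritins are cage proteins that store iron.

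The 4 Cd 24 ug/L libraries held 13937776 to 15028109 counts and the 4 controls 15554194 to 16972198. Control replicate 4 stood apart from the other 7 libraries. Its TMM factor, which corrects a library total for composition, was 0.646, against 1.02 to 1.04 in the Cd 24 ug/L libraries and 1.06 to 1.07 in control replicates 1 to 3. Ribosomal protein genes took 13.3% of its counts, against 6.37% to 6.69% at Cd 24 ug/L and 6.72% to 6.76% in the other controls. The count-weighted median gene length was 1978 bases in it, 2765 to 2790 at Cd 24 ug/L and 2791 to 2795 in the other controls. Cd 2.4 ug/L replicate 3 had the same kind of profile. Fold changes of most named genes against control are therefore given with all 4 controls and then without control replicate 4.

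Levels are counts scaled to a common library size (CPM) after TMM scaling. Genes were tested in edgeR's quasi-likelihood model of all 28 libraries, and genes with an adjusted p (Benjamini-Hochberg over all genes tested) below 0.05 are the calls. With all controls, 234 of 25393 genes were called (0.922%), 189 higher (0.744%) and 45 lower (0.177%) at Cd 24 ug/L. Without control replicate 4, 244 of 25647 genes were called (0.951%), 208 higher (0.811%) and 36 lower (0.14%). These calls were not the same genes throughout: of the 234, 158 were also called without control replicate 4, namely 136 of the 189 rises and 22 of the 45 falls. Leaving out both divergent libraries gave 1300 calls (5.08%), 929 higher (3.63%) and 371 lower (1.45%), and all 234 of the first set were among them. DESeq2 called 599 (2.36%). Of the 234, 42 have clone names and 16 are unannotated loci. Most changes were small: 49 of the 189 rises and 16 of the 45 falls were at least 2-fold. The count was 141, 106 and 149 when Cd 24 ug/L replicate 1, 2 or 3 was left out. It was 58 when the model held only the 16 control and cadmium libraries and 19 with the 8 libraries compared, and 1070 with those 8 less control replicate 4. In 4.38% of the tested genes all 4 Cd 24 ug/L libraries lay above all 4 controls, and in 3.44% they lay below.

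A run of ferritin heavy chain-like genes on chromosome 3 rose together. The 8 annotated genes between positions 32099507 and 32140446 (GRCz11) are all ferritin genes, and 7 of the 8 were called higher at Cd 24 ug/L, both with and without control replicate 4. Of all genes, 0.744% and 0.811% were called higher in these settings. The ends of this stretch were set from these 8 genes with their values known, so the count describes them and is no test of the region. In the list of ferritin and iron genes 4 of 28 tested members rose and 0 fell, with and without control replicate 4, against 0.744% and 0.177%, and 0.811% and 0.14%, of all genes, with a list median of 0.10 on the log2 scale against -0.02 for all genes tested. Those 4 were fthl28, fthl29, fthl30 and fthl31, all in this run. The other genes of the run, and fth1b, were chosen after their values were seen. These genes are paralogs of one family with similar sequences, so how the authors' counting split reads among them is uncertain.

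The gene fthl29 (ENSDARG00000113977) had 216, 192, 183 and 209.8 CPM at Cd 24 ug/L, against 19.9, 18.04, 22.1 and 61.97 CPM in controls. All Cd 24 ug/L libraries lay above all controls, and control replicate 4 was the highest control. The log2 fold change was 2.73 ± 0.37 (SE; edgeR adjusted p = 0.000107) and 3.32 ± 0.33 without control replicate 4 (adjusted p = 1.17e-06). For fthl28 the levels were 131, 110.1, 122 and 115 CPM at Cd 24 ug/L, against 12.3, 16.8, 14.7 and 29.2 CPM in controls, a log2 fold change of 2.72 ± 0.30 (adjusted p = 4.84e-06; 3.03 ± 0.30, adjusted p = 1.1e-06, without control replicate 4). For fthl31 they were 59.06, 62.5, 49.6 and 59.7 CPM at Cd 24 ug/L, against 5.71, 9.47, 6.22 and 23.9 CPM in controls (2.37 ± 0.36, adjusted p = 0.000446; 3.01 ± 0.31, adjusted p = 1.55e-06, without control replicate 4). The groups of both genes did not overlap, with all Cd 24 ug/L libraries above all controls, a pattern that 4.38% of all tested genes had. The weakly expressed fthl30 had 5.97 ± 0.86 CPM at Cd 24 ug/L, against 1.61 ± 1.06 CPM in controls (SD, n = 4 each), a log2 fold change of 1.93 ± 0.38 (adjusted p = 0.009; 2.46 ± 0.37, adjusted p = 0.000534, without control replicate 4). The remaining 3 loci gave the largest fold changes of the run. Names alone do not tell 2 of them from other genes of the run. The deposited counts also name fthl27 (ENSDARG00000031776) zgc:92066 and fthl31 (ENSDARG00000094210) zgc:109934. The fthl names used here are reference symbols for the gene IDs. A locus of 279 bases named zgc:92066 (ENSDARG00000116586) had 43.1, 40.5, 30.8 and 45.97 CPM at Cd 24 ug/L, against 2.14, 1.21, 1.5 and 4.75 CPM in controls (4.11 ± 0.46, adjusted p = 6.37e-06; 4.63 ± 0.47, adjusted p = 1.55e-06, without control replicate 4). Levels of BX511021.1 were 31.8, 40.3, 29.8 and 29.6 CPM at Cd 24 ug/L, against 1.84, 1.45, 2.63 and 3.65 CPM in controls (3.80 ± 0.41, adjusted p = 3.69e-06; 4.05 ± 0.44, adjusted p = 4.45e-06, without control replicate 4). A second locus of 279 bases, zgc:109934 (ENSDARG00000113150), had 111, 36, 112 and 52 counts at Cd 24 ug/L, against 0, 16, 4 and 0 counts in controls (adjusted p = 0.00361; 0.00763 without control replicate 4). None of these 7 calls was lost when any 1 of the 8 libraries was left out.

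The 1 gene of the run that was not called was fthl27, its most abundant member. It had 213, 203, 182 and 221 CPM at Cd 24 ug/L, against 141, 113, 137 and 452 CPM in controls, so that control replicate 4 exceeded all Cd 24 ug/L libraries. Its log2 fold change was -0.04 ± 0.33 (adjusted p = 0.973) with all controls, 0.65 ± 0.26 (adjusted p = 0.351) without control replicate 4, and 0.65 ± 0.11 (adjusted p = 0.000478) without both divergent libraries. The ferritin genes elsewhere in the genome were not called: fth1a was at 899 ± 41.6 CPM at Cd 24 ug/L, against 865 ± 51.8 CPM in control replicates 1 to 3 (SD) and 2221 CPM in control replicate 4, and fth1b at 29.7 ± 2.05 CPM, against 33.6 ± 7.95 CPM in all 4 controls (SD).

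**Figure D1:**
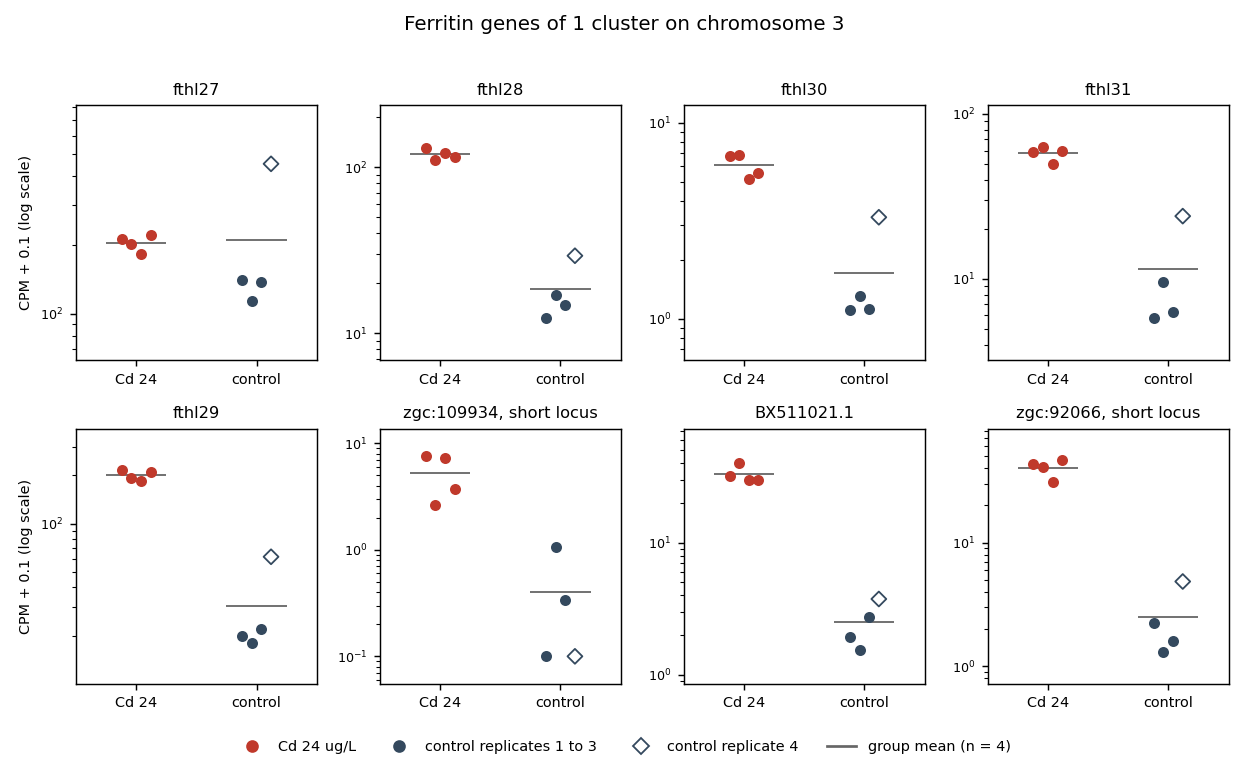
CPM plus 0.1 on log axes for the 8 ferritin genes of the chromosome 3 run, in the order in which they lie there, with Cd 24 ug/L left and control right; each point is a library, the open diamond is control replicate 4 and bars are means of 4 libraries. In 7 panels all Cd 24 ug/L points lie above all control points, and in that of fthl27 only the open diamond (452 CPM) lies above the Cd 24 ug/L points; the short loci are those of 279 bases.

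The summed level of the 7 loci other than fthl27 put Cd 24 ug/L beside the lower doses. It was 42.9, 49.2, 48.3 and 127 CPM in control replicates 1 to 4. In Cd 2.4 ug/L replicates 1 to 4 it was 135, 151, 413 and 338 CPM, replicate 3 being divergent. It was 336 to 499 CPM at Cd 12 ug/L and 428 to 495 CPM at Cd 24 ug/L. At all PCB126 doses it was 15.3 to 33.9 CPM, below the controls. The ranges of Cd 12 and 24 ug/L overlapped. No gene of the run was called between these doses (fthl29: 0.06 ± 0.34, adjusted p = 1.00). The direct test against PCB126 0.8 nM called all of the 7, for example fthl30 at 2.70 ± 0.40 (adjusted p = 0.000172) and fthl29 at 5.31 ± 0.42 (adjusted p = 7.22e-09).

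No metallothionein or metal transporter gene of the list was called with all controls. Of 31 tested metallothionein and zinc or copper transport genes, 0 were called by edgeR and 0 by DESeq2, both with all controls and, for edgeR, without control replicate 4. Of all genes, edgeR called 0.922% with all controls and 0.951% without control replicate 4, and DESeq2 called 2.36%. A count of 0 among 31 genes is near these shares. Their median log2 fold change was 0.00, against -0.02 for all genes, and 16 of 31 were positive. The metallothionein gene mt2 (ENSDARG00000041623) had 6.62, 18.6, 6.45 and 9.04 CPM at Cd 24 ug/L, against 2.5, 4.1, 7.18 and 8.85 CPM in controls. Cd 24 ug/L replicate 2 was the highest library, replicate 4 lay just above the highest control, and replicates 1 and 3 lay within the control range. The log2 fold change was 0.86 ± 0.39 (adjusted p = 0.359; 1.14 ± 0.41, adjusted p = 0.263, without control replicate 4). The gene of the zinc exporter slc30a1a had 54.3, 58.6, 56.004 and 54.5 CPM at Cd 24 ug/L, against 42.8, 41.03, 42.7 and 52.5 CPM in controls. All its Cd 24 ug/L libraries lay above all controls, a pattern that 4.38% of all tested genes had. The difference was not called with all controls and was called without both divergent libraries (0.41 ± 0.07 on the log2 scale, adjusted p = 0.00136; 0.32 ± 0.11, adjusted p = 0.2, with all; 0.40 ± 0.11, adjusted p = 0.0841, without control replicate 4). The metal importer gene slc39a8 was at -0.48 ± 0.23 (adjusted p = 0.388), with -0.52 ± 0.25 (adjusted p = 0.506) without control replicate 4. The haem oxygenase gene hmox1a was at 0.26 ± 0.18 (adjusted p = 0.548) with all controls and 0.55 ± 0.14 (adjusted p = 0.0632) without control replicate 4, and it was called higher without both divergent libraries (0.55 ± 0.12, adjusted p = 0.00513).

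The stanniocalcin gene stc1l, the phosphate hormone gene fgf23 and the vitamin D enzyme gene cyp2r1 fell. The list of 38 tested calcium, phosphate and vitamin D genes had 3 lower and 1 higher, against 0.177% and 0.744% of all genes (3 lower and 0 higher without control replicate 4, against 0.14% and 0.811%), with a median of 0.05 and -0.04. The largest fall of all named genes was in stc1l (ENSDARG00000058476, chromosome 10, 42677891 to 42685512), a stanniocalcin gene. It had 2, 1, 1 and 2 counts at Cd 24 ug/L, against 64, 80, 58 and 115 counts in controls. In CPM this was 0.135, 0.0706, 0.0639 and 0.139 at Cd 24 ug/L, against 3.8, 4.83, 3.47 and 10.5 in controls. Every Cd 24 ug/L library was far below the lowest control, and the size of the fold rests on these few counts. The log2 fold change was -5.67 ± 0.65 (adjusted p = 8.66e-06) and -5.20 ± 0.62 without control replicate 4 (adjusted p = 1.94e-05); no single omission ended the call. The span of the gene overlaps that of rhobtb2b on the other strand, and strandedness is not settled by the labels. Overlap of exons was not checked, so reads of the pair may be mixed. Low levels of stc1l were seen at Cd 12 and 24 ug/L and not at Cd 2.4 ug/L. Group means were 5.65 ± 3.28 CPM in controls, 5.90 ± 3.82 CPM at Cd 2.4 ug/L, 0.962 ± 0.965 CPM at Cd 12 ug/L and 0.102 ± 0.0405 CPM at Cd 24 ug/L (SD, n = 4 each). The highest Cd 2.4 ug/L library was the divergent replicate 3 (11.3 CPM). The step from Cd 12 to 24 ug/L was not called (-3.05 ± 0.73, adjusted p = 1.00), that from Cd 2.4 ug/L was (-5.73 ± 0.65, adjusted p = 5.4e-05), and levels at the 3 PCB126 doses averaged 4.61, 4.42 and 4.71 CPM (0.08, 0.4 and 0.8 nM).

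The gene of fgf23, a hormone that lowers phosphate and active vitamin D in mammals, had 5, 2, 2 and 1 counts at Cd 24 ug/L, against 19, 20, 14 and 10 counts in controls. Its groups did not overlap, with a log2 fold change of -2.54 ± 0.51 (adjusted p = 0.0102; -2.59 ± 0.54, adjusted p = 0.0135, without control replicate 4). The call ended without Cd 24 ug/L replicate 2 or 4 (highest adjusted p = 0.053). The vitamin D 25-hydroxylase gene cyp2r1 had 5.74, 7.7, 5.81 and 5.08 CPM at Cd 24 ug/L, against 13.7, 12.3, 13.4 and 21.6 CPM in controls (-1.32 ± 0.22, adjusted p = 0.00131; -1.11 ± 0.21, adjusted p = 0.00476, without control replicate 4). It overlaps calca on the other strand. Of the later steps of vitamin D metabolism, cyp27b1, which makes the active form, was at -0.82 ± 0.41 (adjusted p = 0.402; -1.11 ± 0.37, adjusted p = 0.202, without control replicate 4). The gene cyp24a1, which degrades it, was at 1.61 ± 0.41 (adjusted p = 0.0647; 1.58 ± 0.46, adjusted p = 0.117, without control replicate 4). Both values were chosen after they were seen. Both were called without both divergent libraries (-1.1001 ± 0.24, adjusted p = 0.00559, and 1.58 ± 0.46, adjusted p = 0.0465). The phosphate transporter gene slc20a1b was higher with all controls (0.43 ± 0.10, adjusted p = 0.0247; 0.37 ± 0.09, adjusted p = 0.059, without control replicate 4) but not without control replicate 4, control replicate 3 or Cd 24 ug/L replicate 2, 3 or 4. The epithelial calcium channel gene trpv6 had 16.2, 16.8, 13.99 and 21.3 CPM at Cd 24 ug/L, against 18.8, 22.6, 19.5 and 21.4 CPM in controls, and was not called (-0.27 ± 0.12, adjusted p = 0.35; -0.25 ± 0.13, adjusted p = 0.546, without control replicate 4). The parathyroid hormone gene pth1a had 58 counts over all 28 libraries and was not tested.

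The genes spp1, scpp1 and scpp9 of secreted calcium-binding phosphoproteins, a family that takes part in mineralising bone, teeth and scales, fell. In their list 3 of 22 tested members were lower and 0 higher, against 0.177% and 0.744% of all genes, and 3 of 23 were lower without control replicate 4, against 0.14%, although the list medians were 0.02 and 0.18. The osteopontin gene spp1 had 6.28, 6.43, 6.96 and 6.95 CPM at Cd 24 ug/L, against 12.7, 9.41, 13.996 and 24.6 CPM in controls, with no overlap (-1.18 ± 0.23, adjusted p = 0.00694; -0.86 ± 0.19, adjusted p = 0.0247, without control replicate 4). For scpp1 the levels were 2.57, 2.26, 1.72 and 3.06 CPM at Cd 24 ug/L, against 6.78, 5.25, 6.52 and 3.83 CPM in controls (-1.22 ± 0.24, adjusted p = 0.009; -1.36 ± 0.24, adjusted p = 0.00322, without control replicate 4). For scpp9 they were 1.08, 2.33, 1.98 and 2.23 CPM at Cd 24 ug/L, against 4.99, 6.88, 5.68 and 10.9 CPM in controls (-1.89 ± 0.39, adjusted p = 0.0121; -1.62 ± 0.39, adjusted p = 0.0445, without control replicate 4). Both stayed below every control, a pattern that 3.44% of all tested genes had, and both calls held without control replicate 4. That of scpp1 ended without Cd 24 ug/L replicate 3 (adjusted p = 0.0514) and that of scpp9 without Cd 24 ug/L replicate 1 (adjusted p = 0.0639). The scpp9 means were 11.2 ± 6.51 CPM at Cd 2.4 ug/L and 4.49 ± 1.28 CPM at Cd 12 ug/L, against 1.9 ± 0.568 CPM at Cd 24 ug/L (SD, n = 4 each). The divergent replicate 3 was the highest Cd 2.4 ug/L library for scpp9 (19.6 CPM). Of the 31 cartilage genes tested, 0 were called with all controls (1 higher without control replicate 4), with 0 also by DESeq2. The shares of all genes called in these settings were 0.922%, 0.951% and 2.36%.

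Genes of 2 calcium-binding proteins with EF-hand motifs, s100a11 and pvalb8, fell. No list of EF-hand genes was among the gene lists, so how many other such genes changed was not counted. Levels of s100a11 were 10.203, 6.64, 9.32 and 11.9 CPM at Cd 24 ug/L, against 25.8, 28.9, 28.9 and 80.9 CPM in controls, and those of the parvalbumin gene pvalb8 62.3, 62.8, 63.5 and 70.4 CPM, against 129.7, 128, 140.4 and 373 CPM in controls. Control replicate 4 was far above the other controls for both. The log2 fold changes were -2.11 ± 0.39 (adjusted p = 0.00507) and -1.57 ± 0.30 (adjusted p = 0.00757), and -1.55 ± 0.35 (adjusted p = 0.024) and -1.04 ± 0.24 (adjusted p = 0.0324) without it.

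**Figure D2:**
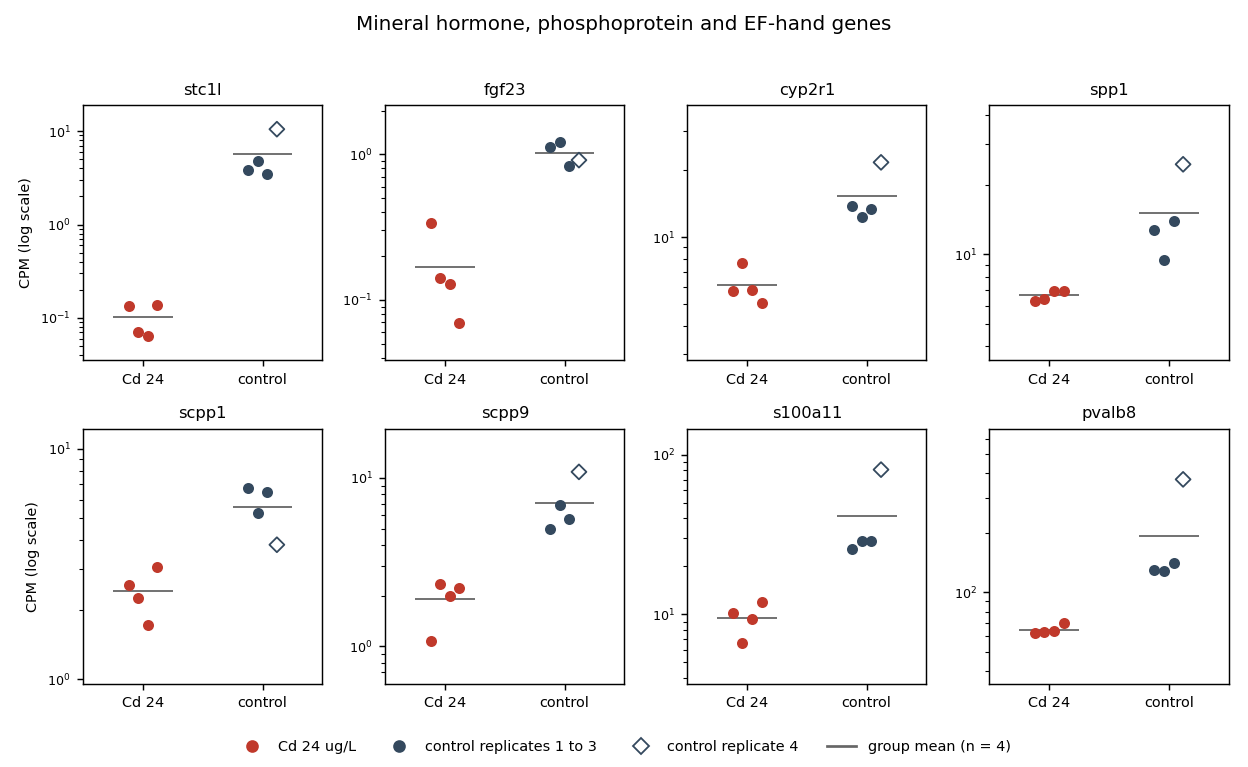
CPM on log axes of 8 genes, with Cd 24 ug/L left and control right; each point is a library, the open diamond is control replicate 4 and bars are means of 4 libraries. All Cd 24 ug/L points lie below all control points in every panel, with the widest gap for stc1l (0.0639 to 0.139 CPM, against 3.47 to 10.5 CPM).

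Ionocyte genes were higher where they passed the test. Of 48 tested, 4 rose and 0 fell, against 0.744% and 0.177% of all genes, and without control replicate 4 rhcgb alone was called, against 0.811% and 0.14%. The ammonia transporter gene rhcgb had 27.16, 22.7, 25.4 and 24.7 CPM at Cd 24 ug/L, against 12.8, 12.7, 15.7 and 10.04 CPM in controls (0.96 ± 0.20, adjusted p = 0.0164; 0.86 ± 0.21, adjusted p = 0.0445, without control replicate 4). Its call ended without Cd 24 ug/L replicate 1 (adjusted p = 0.0605). The other 3 were rhcga, a related ammonia transporter gene (0.58 ± 0.14; 0.58), slc12a10.2, a sodium chloride cotransporter gene (0.54 ± 0.12; 0.42), and atp6v0a1a, a proton pump subunit gene (0.28 ± 0.07; 0.27), the second value of each being without control replicate 4. Their adjusted p were 0.0486, 0.0318 and 0.0469, and 0.0758, 0.0754 and 0.0722 without control replicate 4. These 3 calls also ended without other single libraries. At PCB126 0.8 nM rhcgb had 24.4, 35.4, 28.99 and 29.04 CPM, also above all controls. In the same group rhcga had 39.1, 39.7, 41.8 and 40.8 CPM, below all controls. In whole larvae, more cells of a type and more RNA per cell cannot be told apart. The summed level of the list was 3295 to 3459.6 CPM at Cd 24 ug/L, against 2999.8 to 3053 CPM in control replicates 1 to 3 and 2796 CPM in control replicate 4.

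The 2 smallest adjusted p-values were those of per2 and lonrf1l, genes that light induces in zebrafish. The list of clock and light-response genes had 8 of 44 tested members higher and 0 lower, with and without control replicate 4, against 0.744% and 0.177%, and 0.811% and 0.14%, of all genes; its median was 0.27 and 0.11. The clock gene per2 (ENSDARG00000034503, chromosome 2, 48309600 to 48375342), which light induces directly, had 183, 194, 195 and 179.7 CPM at Cd 24 ug/L, against 28.1, 27.5, 26.4 and 24.3 CPM in controls. This was 7.07-fold, a log2 fold change of 2.82 ± 0.12 (adjusted p = 1.11e-13; 2.78 ± 0.13, adjusted p = 1.36e-12, without control replicate 4). The photolyase gene cry5 had 11.9, 12.1, 12.3 and 15.6 CPM at Cd 24 ug/L, against 3.98, 3.38, 4.13 and 6.3 CPM in controls (1.56 ± 0.17, adjusted p = 3.69e-06; 1.76 ± 0.16, adjusted p = 2.06e-07, without control replicate 4). The gene lonrf1l had 116, 112, 117 and 110.1 CPM at Cd 24 ug/L, against 45.8, 45.2, 46.4 and 50.5 CPM in controls (1.28 ± 0.07, adjusted p = 9.74e-12; 1.31 ± 0.07, adjusted p = 2.02e-11, without control replicate 4). The cryptochrome genes cry1bb (1.14 ± 0.08; 1.0954), cry1aa (0.72 ± 0.06; 0.69), cry1ab (0.67 ± 0.09; 0.71) and cry-dash (0.62 ± 0.14; 0.81) and the nuclear receptor gene rorcb (0.39 ± 0.09; 0.41) were the other 5 (the second value of each is without control replicate 4). All Cd 24 ug/L libraries lay above all controls for all 8 genes, a pattern that 4.38% of all genes had. The call of cry-dash ended when control replicate 1, 2 or 3 or any Cd 24 ug/L library was left out (highest adjusted p = 0.0953); those of per2, cry5, lonrf1l, cry1bb and cry1aa held in all 8 omissions. The gene lonrf1l overlaps 2 genes on the other strand, and cry5 overlaps foxred1.

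These genes were lowest in controls and highest in PCB126 groups. The group means of per2 were 26.6 ± 1.67 CPM in controls, 82.4 ± 21.4, 139 ± 14.9 and 188 ± 7.71 CPM at Cd 2.4, 12 and 24 ug/L, and 215 ± 8.72, 262 ± 3.9 and 296 ± 12.1 CPM at PCB126 0.08, 0.4 and 0.8 nM (SD, n = 4 each). For cry5, lonrf1l, cry1bb, cry1aa and cry-dash the means of the 7 groups stood in that same order. The direct test put Cd 24 ug/L below PCB126 0.8 nM for per2 (-0.65 ± 0.11, adjusted p = 0.00111), cry5 (-0.99 ± 0.16, adjusted p = 0.000355), lonrf1l (-0.61 ± 0.07, adjusted p = 2.41e-06) and cry1bb (-0.52 ± 0.08, adjusted p = 0.000241). It put Cd 24 ug/L above Cd 2.4 ug/L for per2 (1.19 ± 0.12, adjusted p = 5.85e-06). The labels give neither the clock time nor the order in which groups were collected nor the lighting, so a difference in these between groups cannot be told apart from the exposure.

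**Figure D3:**
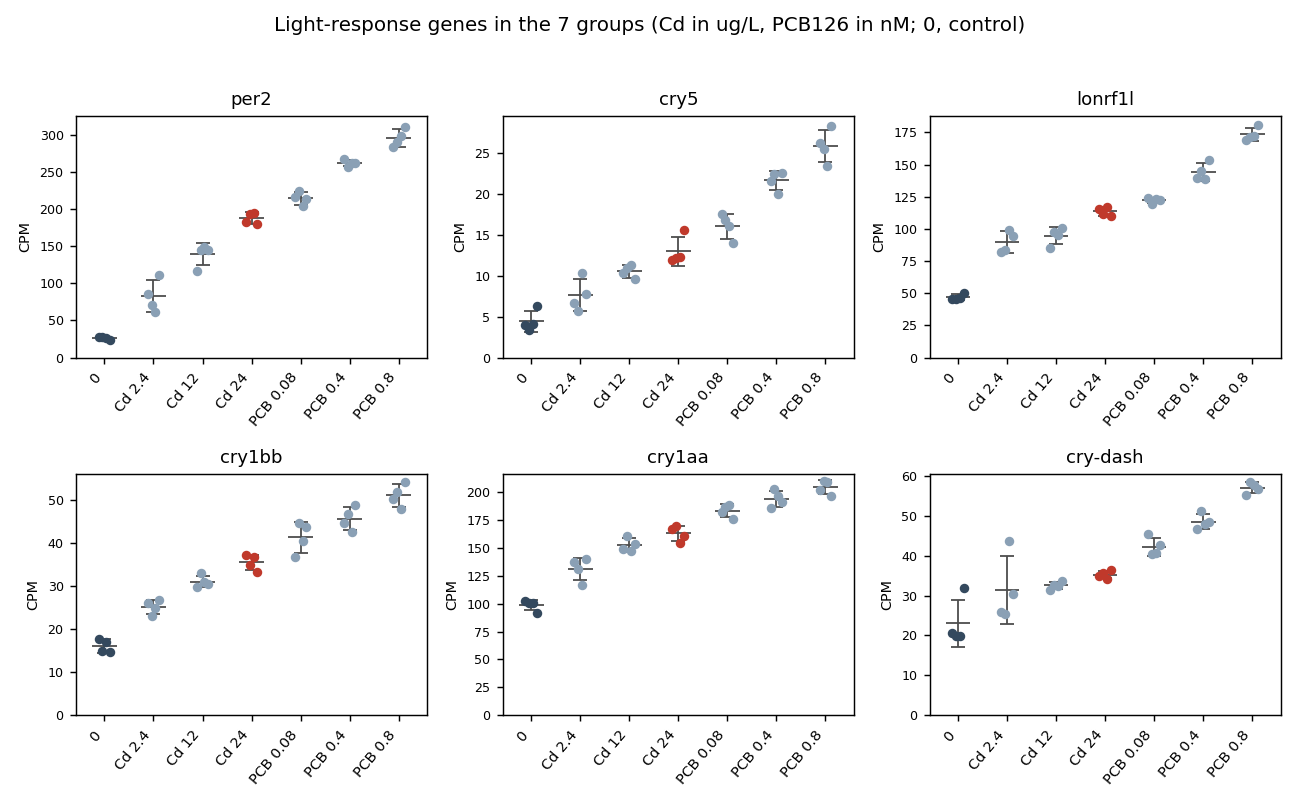
CPM on linear axes of 6 light-response genes in the 7 groups, ordered by dose within each chemical, with control at the low end; points are libraries and bars are means ± SD of 4. The group means climb from control through Cd 24 ug/L to PCB126 0.8 nM in every panel.

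Genes of glucose use changed in both directions. Of 60 tested glucose and glycolysis genes, 5 were higher and 2 lower with all controls, against 0.744% and 0.177% of all genes. The counts were 9 higher and 0 lower without control replicate 4, against 0.811% and 0.14%, and 23 higher and 2 lower without both divergent libraries, where 3.63% and 1.45% of all genes were called; the median was 0.10 and, without control replicate 4, 0.22. The muscle phosphofructokinase gene pfkma, a rate-limiting step of glycolysis, had 165, 215, 171 and 159 CPM at Cd 24 ug/L, against 77.9, 59.7, 82.1 and 80.04 CPM in controls (1.25 ± 0.12, adjusted p = 8.82e-07; 1.28 ± 0.13, adjusted p = 1.55e-06, without control replicate 4). The gene pfkfb3, whose product makes an activator of phosphofructokinase, had 68.1, 68.6, 61.9 and 72.7 CPM at Cd 24 ug/L, against 33.3, 32.4, 31.2 and 23.6 CPM in controls (1.17 ± 0.16, adjusted p = 0.00016; 1.07 ± 0.17, adjusted p = 0.00076, without control replicate 4). The pyruvate dehydrogenase kinase gene pdk2b had 238, 275, 177 and 267 CPM at Cd 24 ug/L, against 102, 90.3, 82.4 and 109 CPM in controls (1.32 ± 0.21, adjusted p = 0.000742; 1.39 ± 0.23, adjusted p = 0.00122, without control replicate 4). Levels of pck1, a gene of an enzyme of glucose synthesis, were 912, 1073, 874 and 881 CPM at Cd 24 ug/L, against 388, 436, 496 and 704 CPM in controls (0.89 ± 0.16, adjusted p = 0.00434; 1.09 ± 0.15, adjusted p = 0.00011, without control replicate 4). All Cd 24 ug/L libraries lay above all controls for these 4 genes, a pattern that 4.38% of all tested genes had. No omission of 1 library ended their calls. The fifth rise was in the glucose transporter gene slc2a3a (0.42 ± 0.09, adjusted p = 0.0167; 0.32 ± 0.07, adjusted p = 0.0259, without control replicate 4). Outside the list, phka1b, a gene of a phosphorylase kinase subunit, which controls glycogen breakdown, had 13.9, 18.01, 12.2 and 8.83 CPM at Cd 24 ug/L, against 6.6, 4.52, 4.55 and 2.28 CPM in controls (1.55 ± 0.35, adjusted p = 0.0304; 1.34 ± 0.35, adjusted p = 0.0702, without control replicate 4). Its call was lost without control replicate 2, 3 or 4 or Cd 24 ug/L replicate 1, 2 or 3.

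The falls in the list were in the glucokinase gene gck and the liver pyruvate kinase gene pklr. Levels of gck were 7.91, 6.71, 8.68 and 18.1 CPM at Cd 24 ug/L, against 53.7, 28.7, 27.5 and 53.8 CPM in controls (-1.98 ± 0.48, adjusted p = 0.0448). Those of pklr were 269, 309, 289 and 401 CPM at Cd 24 ug/L, against 519.9, 542, 430.0 and 1421 CPM in controls (-1.1991 ± 0.29, adjusted p = 0.0398). Both calls ended without control replicate 4 (-1.82 ± 0.49, adjusted p = 0.0814, and -0.65 ± 0.21, adjusted p = 0.188) and without Cd 24 ug/L replicate 1, 2 or 3, and that of gck also without control replicate 1. All Cd 24 ug/L libraries were below all controls for both genes, a pattern that 3.44% of all tested genes had. At PCB126 0.8 nM gck averaged 10.5 ± 7.43 CPM (SD, n = 4), and the direct test did not call it (-0.01 ± 0.48). There pklr had 426, 397, 360 and 498 CPM and pck1 had 617, 937, 1079 and 960 CPM. The 4 rises first called without control replicate 4 were in ldha, aldoaa, pkma and pkmb, at 0.58, 0.72, 0.29 and 0.51 on the log2 scale, and ldha, pkma and pkmb, like cry1ab, rorcb and slc2a3a above, were chosen after their values were seen. In the fatty acid list 3 of 68 were higher and 0 lower, with and without control replicate 4, against 0.744% and 0.177%, and 0.811% and 0.14%, of all genes. They included cpt1b, which brings fatty acids into muscle mitochondria (0.56 ± 0.11, adjusted p = 0.00858; 0.67 ± 0.11, adjusted p = 0.000889, without control replicate 4), and apobb.1, an apolipoprotein B gene (0.48 ± 0.10, adjusted p = 0.0093; 0.48 ± 0.09, adjusted p = 0.00628, without control replicate 4). Both calls ended without Cd 24 ug/L replicate 2 (adjusted p = 0.0654 and 0.056).

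**Figure D4:**
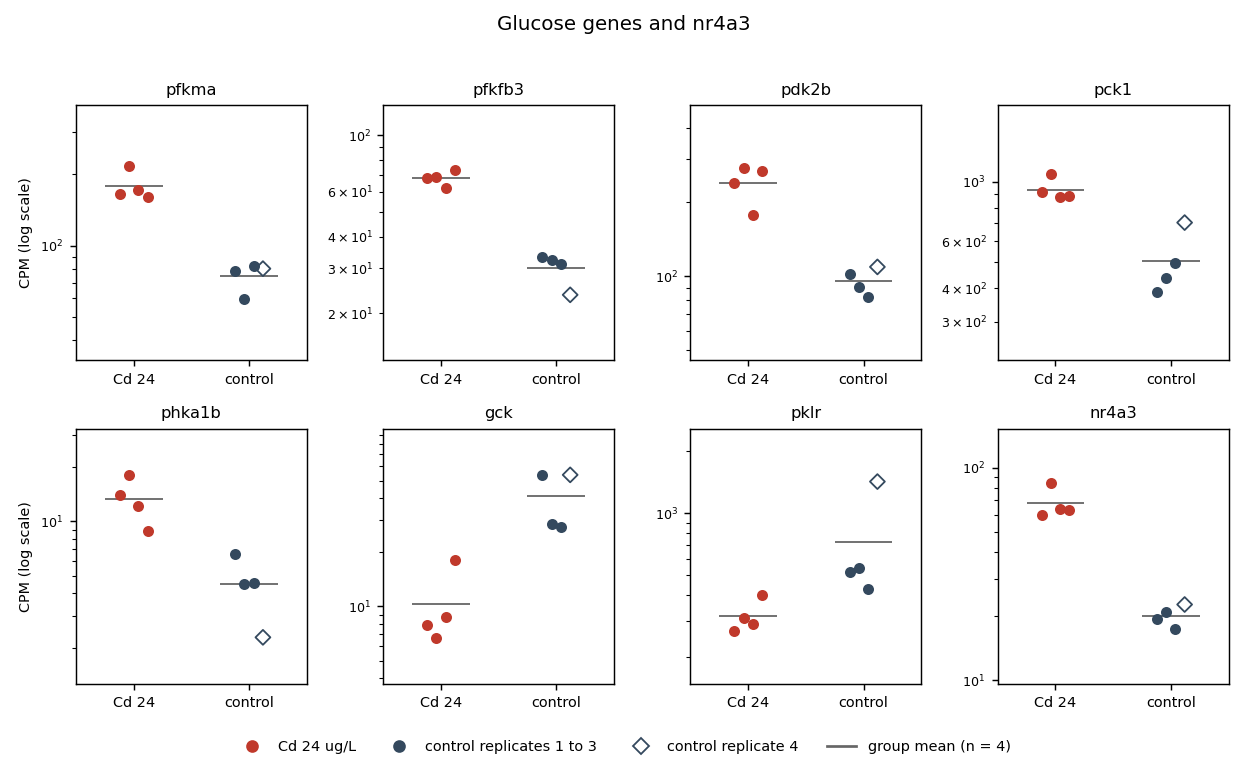
CPM on log axes of 7 glucose genes and nr4a3, with Cd 24 ug/L left and control right; each point is a library, the open diamond is control replicate 4 and bars are means of 4 libraries. The Cd 24 ug/L points lie above all controls for pfkma, pfkfb3, pdk2b, pck1, phka1b and nr4a3 and below them for gck and pklr.

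The nuclear receptor gene nr4a3 was the only member of its 4-gene family called. It had 59.7, 84.3, 63.9 and 63.3 CPM at Cd 24 ug/L, against 19.4, 20.9, 17.4 and 22.7 CPM in controls (1.75 ± 0.21, adjusted p = 1.74e-05; 1.82 ± 0.23, adjusted p = 4.21e-05, without control replicate 4). Its mean was 23.5 ± 9.11 CPM at Cd 2.4 ug/L, 48.5 ± 7.73 CPM at Cd 12 ug/L and 20.02 ± 2.346 CPM at PCB126 0.8 nM (SD, n = 4 each), and Cd 24 ug/L exceeded Cd 2.4 ug/L (1.52 ± 0.21, adjusted p = 0.000674) and PCB126 0.8 nM (1.76 ± 0.21, adjusted p = 7.62e-06). The related nr4a1 was at 0.12 ± 0.14 (adjusted p = 0.746; 0.12 ± 0.15, adjusted p = 0.943, without control replicate 4). Of 39 immediate early and AP-1 genes tested, 2 rose and 1 fell, against 0.744% and 0.177% of all genes (1 and 1 without control replicate 4, against 0.811% and 0.14%). The AP-1 gene fosl1a had 4.86, 6.43, 5.94 and 5.77 CPM at Cd 24 ug/L, against 2.08, 2.65, 1.79 and 2.46 CPM in controls (1.36 ± 0.26, adjusted p = 0.00681; 1.3967 ± 0.28, adjusted p = 0.0106, without control replicate 4). Its better known relative fosab was at 0.06 ± 0.24 (adjusted p = 0.939; 0.23 ± 0.25, adjusted p = 0.922, without control replicate 4). The growth regulator gene mycb had 33.99, 40.2, 43.6 and 40.7 CPM at Cd 24 ug/L, against 65.04, 57.7, 61.5 and 123 CPM in controls (-0.95 ± 0.19, adjusted p = 0.00819; -0.63 ± 0.14, adjusted p = 0.0246, without control replicate 4). Its relative mych was lower as well (-0.67 ± 0.12, adjusted p = 0.00474; -0.58 ± 0.12, adjusted p = 0.018, without control replicate 4).

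In the heat shock and chaperone list 3 of 53 members rose and 1 fell, against 0.744% and 0.177% of all genes, and 5 rose and 1 fell without control replicate 4, against 0.811% and 0.14%; the median was -0.07 and 0.06. The inducible chaperone gene hsp70.3 had 28.9, 21.05, 32.8 and 21.6 CPM at Cd 24 ug/L, against 13.1, 7.78, 7.06 and 16.2 CPM in controls, with no overlap (1.25 ± 0.23, adjusted p = 0.00457; 1.48 ± 0.22, adjusted p = 0.000528, without control replicate 4). It lies beside the similar hsp70.2 (0.87 ± 0.20, adjusted p = 0.0325; 1.12 ± 0.18, adjusted p = 0.00118, without control replicate 4), and both overlap atp2a1, so the split of reads among them is uncertain. The call of hsp70.2 ended without any 1 of control replicates 1 to 3 or Cd 24 ug/L replicates 1 to 3 (highest adjusted p = 0.125). The co-chaperone gene bag3 had 20.7, 22.6, 22.2 and 20.6 CPM at Cd 24 ug/L, against 14.3, 13.5, 11.7 and 13.5 CPM in controls (0.70 ± 0.10, adjusted p = 0.000251; 0.71 ± 0.11, adjusted p = 0.000517, without control replicate 4). The collagen chaperone gene serpinh1b was the fall, with 16.4, 20.1, 20.2 and 11.9 CPM at Cd 24 ug/L, against 35.3, 37.8, 37.5 and 72.9 CPM in controls (-1.41 ± 0.23, adjusted p = 0.00139; -1.1034 ± 0.20, adjusted p = 0.00443, without control replicate 4). At PCB126 0.8 nM serpinh1b had 16.7, 16.96, 17.1 and 25.7 CPM, also below all controls. The endoplasmic reticulum chaperone gene hspa5 was at -0.29 ± 0.19 (adjusted p = 0.533; 0.05 ± 0.14, adjusted p = 0.986, without control replicate 4).

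Of 76 genes of the Nrf2, glutathione and thioredoxin list, 5 rose and 0 fell, against 0.744% and 0.177% of all genes, and 8 rose and 0 fell without control replicate 4, against 0.811% and 0.14%; the median was -0.03 and 0.17. The 5 were aifm4 (0.96 ± 0.13; 1.12), bach1b (0.74 ± 0.13; 0.61), nfe2l2b (0.72 ± 0.16; 0.76), keap1a (0.43 ± 0.09; 0.53) and nfe2l2a (0.37 ± 0.07; 0.29), with the second value of each without control replicate 4. Apart from aifm4 they encode regulators of the pathway. At PCB126 0.8 nM, nfe2l2a (245, 261, 268 and 239 CPM) and keap1a (28.3, 32.2, 35.1 and 33.6 CPM) lay above all controls too. So did nfe2l2b (32.4, 22.7, 27.8 and 31.2 CPM). Against PCB126 0.8 nM, bach1b was not called (0.15 ± 0.13, edgeR adjusted p = 0.997). In that test aifm4 was higher at Cd 24 ug/L (0.53 ± 0.13, adjusted p = 0.0271). The calls of nfe2l2b and keap1a ended without control replicate 1, 2 or 3, that of nfe2l2b also without Cd 24 ug/L replicate 3, and that of keap1a also without Cd 24 ug/L replicate 1, 2 or 4 (highest adjusted p = 0.127 and 0.0796). For nfe2l2a the levels were 179, 182, 168 and 175 CPM at Cd 24 ug/L, against 140.0, 152, 139.7 and 113 CPM in controls (adjusted p = 0.00777), a call lost without Cd 24 ug/L replicate 2 (adjusted p = 0.0502). The genes sqstm1, prdx1 and me1 were called without control replicate 4 but not with all controls, at 1.1001 ± 0.21, 0.96 ± 0.18 and 0.74 ± 0.17. For prdx1 the levels were 55.1, 52.8, 48.9 and 46.5 CPM at Cd 24 ug/L, against 26.5, 22.7, 28.9 and 54.03 CPM in controls, where control replicate 4 lay within the Cd 24 ug/L range and the other 3 below it. The glutathione synthesis gene gclc was at 0.03 ± 0.11 (adjusted p = 0.928; 0.18 ± 0.09, adjusted p = 0.489, without control replicate 4). Of 46 hypoxia genes, 5 rose and 0 fell, against 0.744% and 0.177% of all genes (4 and 0 without control replicate 4, against 0.811% and 0.14%). They were led, after pfkfb3 and igfbp1a, by hif1al (336, 350.2, 304 and 316 CPM at Cd 24 ug/L, against 209.6, 215, 215 and 199.97 CPM in controls; 0.64 ± 0.07, adjusted p = 6.52e-06; 0.61 ± 0.07, adjusted p = 1.6e-05, without control replicate 4) and epas1a (0.55 ± 0.09, adjusted p = 0.00245; 0.45 ± 0.08, adjusted p = 0.00398, without control replicate 4). The direct edgeR test against PCB126 0.8 nM called neither hif1al (0.15 ± 0.07, adjusted p = 0.58) nor epas1a (-0.19 ± 0.09, adjusted p = 0.617). The p53 target gene cdkn1a was at 0.08 ± 0.16 (adjusted p = 0.874; -0.06 ± 0.15, adjusted p = 0.985, without control replicate 4). With all controls 0 of 30 p53 targets were called by edgeR or DESeq2, against 0.922% and 2.36% of all genes.

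The series title names endocrine disruption as its subject. Of the endocrine lists, thyroid (27 tested) and sex steroid (28 tested) genes had 0 calls with all controls by edgeR, against 0.922% of all genes. DESeq2 called 2 thyroid genes lower and 0 sex steroid genes, against 2.36% of all genes in either direction and 221 of 25393 genes lower. Without control replicate 4, duox, which makes the hydrogen peroxide used in thyroid hormone synthesis, was lower (2.09, 1.77, 2.04 and 1.88 CPM at Cd 24 ug/L, against 4.52, 3.44, 5.56 and 2.74 CPM in controls; -1.21 ± 0.30, adjusted p = 0.0475, against adjusted p = 0.0895 with all controls). In the same setting the steroid enzyme gene hsd17b12a was higher (0.89 ± 0.17, adjusted p = 0.00611). Of 33 cortisol genes, 2 rose, against 0.744% of all genes, pck1 and igfbp1a (0.82 ± 0.19, adjusted p = 0.0352; 0.83 ± 0.21, adjusted p = 0.059, without control replicate 4). The call of igfbp1a ended when any 1 of the 8 libraries was left out. The egg yolk gene vtg1 had 36 counts over all 28 libraries. Of 18 aryl hydrocarbon receptor genes 0 were called by edgeR or DESeq2, against 0.922% and 2.36% of all genes. The receptor's target cyp1a had 42.8, 44.5, 45.7 and 43.1 CPM at Cd 24 ug/L, against 43.2, 38.9, 40.1 and 51.1 CPM in controls (0.02 ± 0.11, adjusted p = 0.95; 0.11 ± 0.11, adjusted p = 0.902, without control replicate 4). At PCB126 0.8 nM the mean of cyp1a was 6553.5 ± 133 CPM (SD, n = 4), and the direct test put Cd 24 ug/L below it (-7.22 ± 0.15, adjusted p = 4.98e-22).

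Among the other large rises were cyp2k6, a cytochrome P450 gene, the urea transporter gene slc14a2, the arginase gene arg2, and slc16a6b, a gene of the monocarboxylate transporter family. Levels of cyp2k6 were 5.47, 6.43, 6.96 and 5.35 CPM at Cd 24 ug/L, against 0.654, 2.35, 0.359 and 0.639 CPM in controls (2.57 ± 0.43, adjusted p = 0.00156; 2.42 ± 0.45, adjusted p = 0.00508, without control replicate 4). Control replicate 2 was the highest control and still lay below every Cd 24 ug/L library. Levels of slc14a2 were 4.66, 6.07, 3.7 and 6.33 CPM at Cd 24 ug/L, against 2.14, 1.81, 1.61 and 1.83 CPM in controls (1.48 ± 0.23, adjusted p = 0.000747; 1.48 ± 0.26, adjusted p = 0.00251, without control replicate 4). The log2 fold changes of arg2 and slc16a6b were 1.07 ± 0.16 (adjusted p = 0.000272; 1.18 ± 0.16, adjusted p = 0.000134, without control replicate 4) and 1.14 ± 0.19 (adjusted p = 0.00167; 0.96 ± 0.17, adjusted p = 0.00297, without control replicate 4). The gene eevs, an enzyme gene of ultraviolet-absorbing compounds in fish, was at 1.11 ± 0.17 (adjusted p = 0.000425; 1.1979 ± 0.18, adjusted p = 0.000474, without control replicate 4). These 5 calls held in all 8 single omissions. The eevs means were 14.8 CPM in controls and 24, 25.4 and 32 CPM at Cd 2.4, 12 and 24 ug/L. They were 43.7, 45.2 and 45.4 CPM at PCB126 0.08, 0.4 and 0.8 nM, so the 7 groups stood in the order seen for per2. The direct edgeR test against PCB126 0.8 nM did not call eevs (-0.50 ± 0.16, adjusted p = 0.165). As for per2, group differences in collection time or lighting cannot be told apart from the exposure. The falls of cd74b, the invariant chain of antigen presentation (-1.62 ± 0.38; -1.12 without control replicate 4), ahsg1, a fetuin gene, socs1a, a cytokine signalling inhibitor (-1.07 ± 0.24; -0.94 without control replicate 4), and the keratin gene cyt1l (-1.14 ± 0.24; -0.72 without control replicate 4) all ended without control replicate 4 (adjusted p = 0.143, 0.131, 0.0754 and 0.0651) and without Cd 24 ug/L replicate 1 or 2. The epidermis list, which holds cyt1l, had 3 of 56 tested members higher and 2 lower, against 0.744% and 0.177% of all genes. Without control replicate 4 it had 3 higher and 0 lower, against 0.811% and 0.14%. Leaving out both divergent libraries gave 18 higher and 2 lower, where 3.63% and 1.45% of all genes were called. The spans of s100a11, nr4a3, fosl1a, fosab, serpinh1b, slc12a10.2, apobb.1 and sqstm1, like that of stc1l, overlap genes on the other strand. Their reads may be mixed with those of these neighbours, since overlap of exons was not checked.

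Most genes of the tissue lists had at least 1 count in the 8 libraries: 57 of 59 hepatocyte, 74 of 78 skeletal muscle, 82 of 85 photoreceptor, 76 of 79 neuron, 37 of 40 erythroid and 43 of 43 pronephros genes. Of all genes, 32536 of 38318 had a count by this measure, so it is a weak check of the whole-larva label. The list medians of ribosomal protein, lens, exocrine pancreas, respiratory chain and proteasome genes were -0.66, -0.62, -0.39, -0.37 and -0.30 with all controls and -0.00, 0.01, 0.02, 0.16 and 0.11 without control replicate 4. Testing with edgeR called 0 members of these 5 lists with all controls, where DESeq2 called 0, 2 lower, 1 lower, 0 and 1 higher. Over all genes edgeR called 0.922% and DESeq2 2.36% (378 higher and 221 lower of 25393). Summed ribosomal protein levels were 62619 to 65616 CPM at Cd 24 ug/L, against 63072 to 64084 CPM in control replicates 1 to 3 and 206115 CPM in control replicate 4. Of 61 proliferation genes 0 were called with all controls and 1, mki67, without control replicate 4 (-0.37 ± 0.09, adjusted p = 0.0445), with 4 lower by DESeq2. The shares of all genes called in either direction in these settings were 0.922%, 0.951% and 2.36%. DESeq2 called 221 of all 25393 genes lower. Without both divergent libraries 6 of the 61 were lower and 0 higher, against 1.45% and 3.63% of all genes. The list median was -0.33 with all controls, where 7 members were positive, and -0.07 without control replicate 4. Summed, the list was at 2652 to 2762 CPM at Cd 24 ug/L, against 2877 to 2971 CPM in control replicates 1 to 3 and 4792 CPM in control replicate 4.

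**Figure D5:**
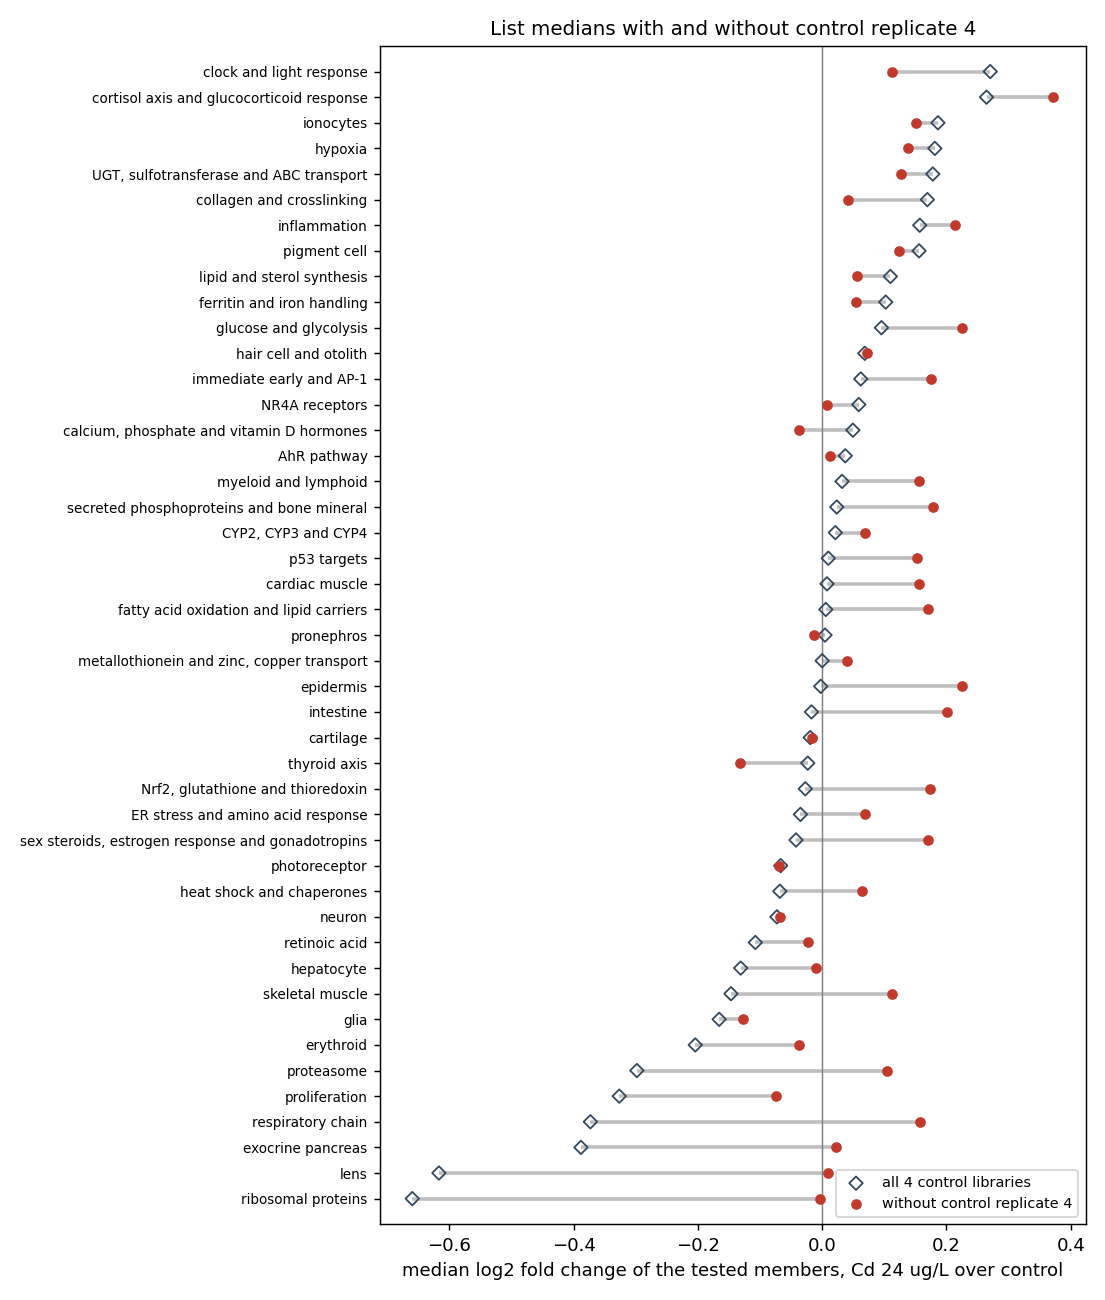
Median log2 fold change (Cd 24 ug/L over control) of the tested members of each of the 45 gene lists, with all 4 controls (open diamonds) and without control replicate 4 (filled points). The longest lines, which mark the largest shifts, are those of the ribosomal protein and lens lists (-0.66 and -0.62, against -0.00 and 0.01).

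Direct tests set Cd 24 ug/L against the neighbouring groups. Between Cd 24 and 12 ug/L, edgeR called 0 of 25393 genes, with 718 at an unadjusted p below 0.05, and DESeq2 called 15 (0.0591%). Without control replicate 4 edgeR called 2 (0.0078%), and without both divergent libraries 22 (0.0859%). The smallest adjusted p was that of pfkma (0.0881; 165, 215, 171 and 159 CPM at Cd 24 ug/L, against a mean of 109 ± 2.87 CPM at Cd 12 ug/L, SD, n = 4). Against Cd 2.4 ug/L, 132 genes were called (0.52%), 60 higher (0.236%) and 72 lower (0.284%). That count depended on single libraries: it was 26, 19, 24 and 35 without Cd 24 ug/L replicates 1 to 4, 58 and 274 without Cd 2.4 ug/L replicates 3 and 4, 1016 (3.96%) without control replicate 4 and 970 (3.79%) without both divergent libraries, and DESeq2 called 650 (2.56%). Among those called, also without both divergent libraries, were hsp70.3 (1.42 ± 0.23, adjusted p = 0.00363), scpp1 (-1.51 ± 0.24, adjusted p = 0.00363) and scpp9 (-2.55 ± 0.39, adjusted p = 0.00247). Against PCB126 0.8 nM, 443 genes were called (1.74%), 187 higher (0.736%) and 256 lower (1.01%), 630 (2.46%) without control replicate 4 and 1683 (6.57%) without both divergent libraries, and DESeq2 called 654 (2.58%). Beside the ferritin run, stc1l (-5.42 ± 0.65, adjusted p = 7.62e-06), fgf23 (-2.90 ± 0.51, adjusted p = 0.0011), hsp70.3 (2.23 ± 0.24, adjusted p = 1.27e-06) and pfkma (1.15 ± 0.12, adjusted p = 9.15e-07) differed in this test. Called against control but not in this test were gck (-0.01 ± 0.48), cd74b (0.09 ± 0.40) and fosl1a (0.12 ± 0.25), among others.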

How the data were processed

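Whole-larva mRNA of 28 libraries (4 in each of 7 groups) was sequenced. The authors deposited raw counts of 38318 genes and unannotated loci with gene lengths in bases (the deposited table gives 6417 unannotated loci, 7.71% of the counts), and TPM of 27475 genes. The submitters' processing notes name HISAT2 2.0.5, featureCounts 1.5.0-p3 and GRCz11; the annotation release and the strand setting are not given in the sources used here. The deposited TPM values equal those recomputed from the counts and lengths to a relative difference of 5.3e-15. Library totals were 11893345 to 20770004 counts.

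Counts were filtered with filterByExpr, scaled by TMM and fitted with a mean per group in edgeR 4.0.16 (R 4.3.3; quasi-likelihood test, two-sided, 21 residual degrees of freedom). The SE of a log2 fold change was derived as its absolute value divided by the square root of the test's F statistic. It is therefore approximate. Alternatives used DESeq2 1.42.0, limma 3.58.1 on log2(TPM + 1) and log2(TPM + 0.1), other filters, other sets of libraries and a replicate block. On simulated counts the edgeR step recovered 61% of 2-fold and 94% of 4-fold changes, with 10 false calls among 24997 unchanged genes. The simulated libraries shared 1 composition, with no divergent library, and changes were planted only in genes above a minimum level. These figures therefore need not hold for the real libraries. Within both groups, every pair of libraries differed by more than sampling noise (chi-square test of counts).

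Genes were named by rule: among calls whose average log2 CPM reached 1 and whose symbol is no clone name, the 15 largest rises and falls with every library of each group beyond the other group's mean, with all controls and without control replicate 4; up to 5 called members of each list; and 21 fixed genes, of which gstp1.1 and cyp19a1b matched no symbol. The comparison and the 45 lists (2427 symbols, 2294 matched) were chosen with earlier results of these data known. Promoter motif counts were planned and not run, since promoter sequences were not used here.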

Additional observations from a re-analysis of the deposited data

Results flagged for a closer look

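In 40 cases 1 library lay far from the other 3 of its group: its gap to the nearest library, as a share of the group's whole range, exceeded Dixon's critical value for groups of 4. Chance gives this in about 1 of 20 groups of 4, and 121 quantities were examined in each group.

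Control replicate 4 was the highest control by a gap above the critical value for 29 named genes. The gap shares were 0.84 (ahsg1), 0.969 (cd74b), 0.94 (cry-dash), 0.847 (cyp2r1), 0.883 (eevs), 0.928 (fth1a), 0.919 (fthl27), 0.908 (fthl29), 0.91 (fthl30), 0.912 (hsd17b12a), 0.877 (hspa5), 0.86 (hspb6), 0.884 (krt1-19d), 0.886 (lipg), 0.929 (me1). They were 0.865 (muc5.2), 0.887 (mycb), 0.887 (pklr), 0.95 (pvalb8), 0.943 (s100a11), 0.854 (sdha), 0.933 (serpinh1b), 0.927 (sgk2b), 0.845 (slc30a1a), 0.841 (slc5a12), 0.832 (socs1a), 0.983 (sqstm1), 0.904 (tcap), 0.915 (tubb5) for the others. It was also lowest in TMM factor (0.973) and median gene length (0.995) and highest in ribosomal protein share (0.994).

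Control replicate 2 was the highest control for cyp2k6 (0.852), the only control above 1 CPM. Among Cd 24 ug/L libraries, replicate 4 was highest for cry5 (0.885), krt1-19d (0.948) and pvalb8 (0.855) and lowest for me1 (0.949), replicate 2 was highest for muc5.2 (0.843) and nr4a1 (0.849), and replicate 1 was highest for slc5a7a (0.898). The highest Cd 24 ug/L level of nr4a1 was 71.1 CPM, against 49.1 CPM in the next library. The part of these libraries in the results was not tested beyond leaving each out.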

How the results depend on the processing

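With all controls 234 genes were called between Cd 24 ug/L and control. The count was 1300 without both divergent libraries, 599 by DESeq2, 141 with no filter on low counts, 135 at a fold of at least 1.5, 58 in the model of the 16 control and cadmium libraries, 19 in that of the 8 libraries compared and 1070 in that of those 8 less control replicate 4. Leaving out single libraries gave 106 to 244. The replicate block gave 187. Same-numbered libraries had correlations of deviations of -0.03, -0.06, 0.10 and 0.02, and only 1 of 4 correlated best with its own number. Control replicate 4 diverged within its group, so these values cannot settle whether the numbers pair libraries. Between Cd 24 and 12 ug/L the count of 0 became 2 without control replicate 4, 22 without both divergent libraries and 15 by DESeq2, and 0 to 2 over single omissions. Against Cd 2.4 ug/L the 132 became 1016 without control replicate 4, 970 without both, 82 with the replicate block, 70 with no filter and 650 by DESeq2, and 19 to 1016 over single omissions. Against PCB126 0.8 nM the 443 became 1683 without both, 408 with the replicate block, and 316 to 630 over single omissions.

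Of 80 named genes that were called, 58 stayed called without control replicate 4, 80 without both divergent libraries, 80 by DESeq2, 71 with the replicate block, 61 with no filter, 24 in the model of 16 libraries, 13 of 79 in that of 8 libraries, and 50 and 49 by limma; none of the 80 changed direction in these settings. The genes whose sign turned were uncalled with all controls. The log2 fold change was 0.0565 for fth1b and 0.412 for fthl27 by limma on log2(TPM + 0.1). It was 0.0549 for fth1b and 0.41 for fthl27 by limma on log2(TPM + 1). It was -0.0553 for cdkn1a, 0.0562 for fth1a, 0.649 for fthl27 and 0.0484 for hspa5 in the model of 7 libraries. It was 0.0464 for fthl27 with the replicate block. It was -0.0504 for cdkn1a, 0.0607 for fth1a, 0.653 for fthl27 and 0.053 for hspa5 without both divergent libraries. Over single omissions it ran from -0.0602 to 0.18 for cdkn1a, -0.023 to 0.111 for cyp1a, -0.113 to 0.229 for fosab, -0.569 to 0.0547 for fth1a, -0.248 to 0.647 for fthl27, -0.0471 to 0.185 for gclc, -0.407 to 0.0466 for hspa5 and -0.0574 to 0.208 for nr4a1. The cause was not tested. Precision is limited by 4 libraries a group and, for stc1l, fgf23 and the short ferritin loci, by few counts.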
